A study of Homo sapiens with 8 samples.

Results

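The genes described here are those of the Wnt ligands, their receptors, the families of secreted inhibitors, and a few turnover and feedback genes. The inhibitor families were taken by name, whether or not each member is an inhibitor. They were picked out by a rule on gene symbols that uses no measured value, and 52 of the 18508 genes in the deposited array table were members. These were 19 Wnt ligand genes, 9 Frizzled receptor genes, 4 genes of co-receptors and ROR receptors, 4 R-spondin genes, 3 LGR receptor genes, 4 DKK genes, 6 genes of SFRP and other Wnt-binding inhibitors, and 3 turnover and feedback genes.

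The cells were ASC52telo (ASC52), a single line of human adipose-derived mesenchymal stem cells (ADSCs) that carries hTERT, the catalytic part of telomerase, so all groups share this immortalization. The protocol in the labels, which is the same for every sample, gives 24 h without serum before a treatment of 72 h, and per the study's methods 24 h in fresh medium came after it. The SAHA group received 1000 nM SAHA (vorinostat), a hydroxamic acid that inhibits histone deacetylases, the EtOH group received the solvent of SAHA, and the untreated group received neither SAHA nor EtOH. RNA was read on Human Clariom S arrays, with 3 SAHA arrays, 2 EtOH arrays and 3 untreated arrays, each array being a biological replicate per the labels, and the question put to them was how SAHA changes gene activity in ADSCs.

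Wnt proteins are secreted lipid-modified ligands that bind Frizzled receptors at the cell surface. With the co-receptors LRP5 and LRP6, this binding stabilizes beta-catenin, which enters the nucleus and acts with TCF and LEF factors on target genes. With ROR receptors, it acts on cell shape and movement without beta-catenin. In mesenchymal stem cells the pathway is known for steering the choice between bone and fat lineages.

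Values are log2 expression after RMA normalization by the authors. Array medians lay between 0.26 and 0.33. The offset of the scale is not known, so levels of different genes, in the ranges and sums below too, can be compared only roughly. Where a gene already lies near the array medians, a fall can hardly be seen. Of the 52 genes, 12 had a mean over 1 in the control arrays, and the other 40 lay between -0.40 and 0.72. The 7 mesenchymal stem cell markers NT5E, THY1, ENG, CD44, ITGB1, ALCAM and PDGFRB had mean log2 values from 4.19 to 8.25, and the 14 markers of blood, endothelial, epithelial and fat cells from -0.29 to 0.88. Added up on the linear scale, the mesenchymal markers ran from 738 to 839 in SAHA arrays and from 628 to 721 in control arrays, and the 4 blood cell markers from 3.96 to 4.05 against 4.30 to 4.79. The same ranges were 3.15 to 3.63 against 3.55 to 4.38 for endothelial markers, 2.30 to 2.67 against 2.54 to 2.97 for epithelial ones and 3.64 to 4.21 against 3.45 to 3.94 for those of fat cells. The part of these shifts in the results below was not tested, and 0 of the 21 markers was called in limma. In RNA from a whole culture, fewer cells of a type and less RNA per cell cannot be told apart.

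In SAHA-treated ADSCs, 2 of the 52 genes rose and 0 fell, compared with the EtOH and untreated arrays combined. DKK3, which encodes a secreted glycoprotein of the Dickkopf family, rose 2.05-fold, and FZD1, which encodes a Frizzled receptor, rose 1.66-fold. The test was limma over all genes, with a call where the adjusted p was under 0.05 and the change reached 1.5-fold. The 2 higher genes are 3.85% of the members, where 0.438% of all 18508 genes were called higher and 0.297% were called lower. This share rests on 2 genes of a family chosen with earlier results of these data known, so it is no test of enrichment. With the replicate number as a block 1 gene passed, and against EtOH alone 0 passed. At an unadjusted p under 0.05 there were 5 genes with a positive and 1 with a negative log2 fold change, where 5.82% of all genes passed with a positive and 9.58% with a negative one. By the methods' t-test, the unpaired test that the study names, 0 of the 52 genes passed after adjustment, with 10 at an unadjusted p under 0.05, where 14.3% of all genes were. Of the log2 fold changes, 25 were positive and 27 negative, a split that turned to 33 positive with each array centred on its median. The median log2 fold change was -0.01 over the 52 genes and -0.034 over all genes.

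**Figure D1:**
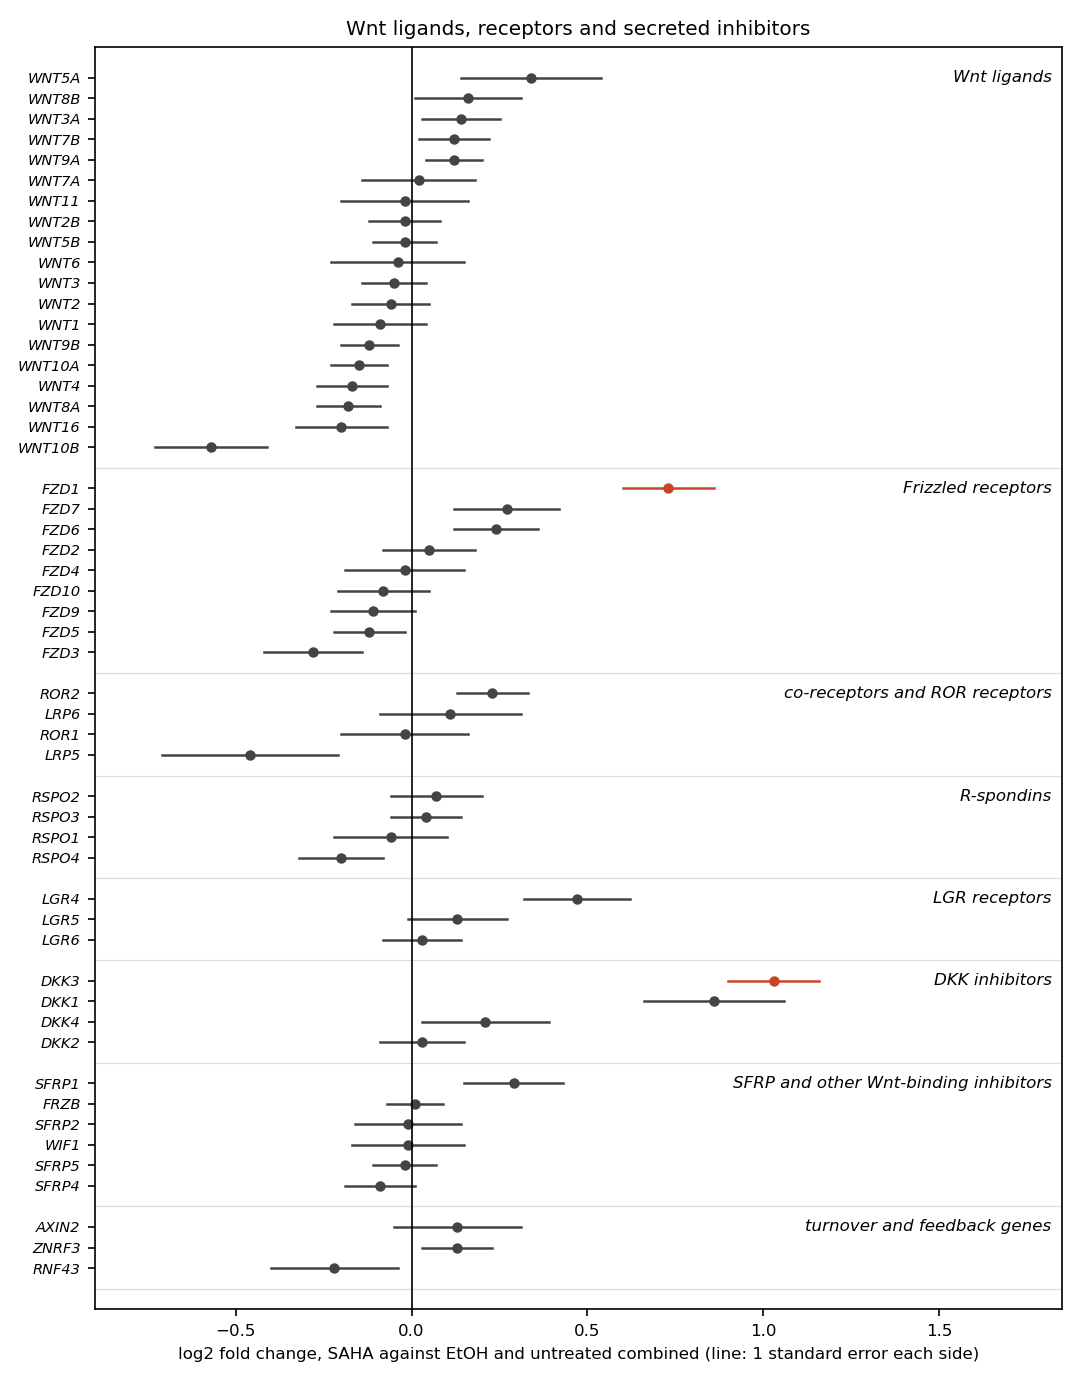
Log2 fold change of each of the 52 genes between SAHA-treated ADSCs and the EtOH and untreated arrays combined, grouped by role. Points are limma estimates, bars reach 1 SE either way and red marks the called genes DKK3 (1.03) and FZD1 (0.73); most other points lie within 0.3 of 0.

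The DKK genes encode secreted proteins, of which DKK1 is the best known inhibitor: it binds LRP5 and LRP6 and keeps them from working with Frizzled. DKK3 is the divergent member of the family, and that action of DKK1 is not to be read into it. Whether DKK3 inhibits Wnt signals in these cells was not tested. On the arrays DKK3 was at log2 values of 2.03, 2.01 and 2.43 in SAHA replicates 1, 2 and 3. It was at 1.08, 1.01 and 1.04 in untreated replicates 1, 2 and 3, and at 1.41 and 1.06 in EtOH replicates 1 and 3. All SAHA arrays thus lay above all control arrays, although EtOH replicate 1 stood above the other controls. The means were 2.15 ± 0.24 (SD, n = 3) and 1.12 ± 0.17 (SD, n = 5), with a log2 fold change of 1.03 (SE, the limma standard error, 0.13, adjusted p = 0.0066 from limma). With the replicate number as a block DKK3 was the 1 member called, at adjusted p = 0.020, where 0.195% of all genes were called higher and 0.0756% lower. Within replicate numbers 1, 2 and 3 the SAHA array was higher than the mean of its controls by 0.78, 0.99 and 1.38 on the log2 scale.

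DKK1 missed the threshold. Its log2 values were 6.22, 5.73 and 5.99 in SAHA replicates 1, 2 and 3, 5.17, 5.15 and 5.65 in untreated replicates 1, 2 and 3, and 4.93 and 4.68 in EtOH replicates 1 and 3. The SAHA arrays did not overlap with the controls, but SAHA replicate 2 lay only just above untreated replicate 3. The log2 fold change was 0.86 (SE 0.20, 95% interval 0.43 to 1.30, adjusted p = 0.075 from limma), from a control mean of 5.12 ± 0.36 (SD, n = 5). DKK1 passed with EtOH and untreated given equal weight, at adjusted p = 0.043, and without untreated replicate 3, at 0.027, among 16 alternatives in which adjusted p ran from 0.027 to 0.26. DKK2 and DKK4, both near the array medians, had log2 fold changes of 0.03 and 0.21.

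Among the Frizzled genes, which encode the 7-pass membrane receptors for Wnt ligands, FZD1 was at log2 values of 6.38, 6.32 and 6.54 in SAHA replicates 1, 2 and 3. It was at 5.47, 5.59 and 5.60 in untreated replicates 1, 2 and 3, and at 6.02 and 5.73 in EtOH replicates 1 and 3. The SAHA arrays lay above all controls, and both EtOH arrays lay above all untreated ones. The log2 fold change was 0.73 (SE 0.13, adjusted p = 0.029 from limma), with 6.42 ± 0.11 (SD, n = 3) against 5.68 ± 0.21 (SD, n = 5). The study's own enrichment tables of these arrays name FZD1, DKK3 and CCND1, so these calls are not independent evidence. With the replicate number as a block the call was lost, at adjusted p = 0.11. It was also lost without SAHA replicate 1 (0.11), SAHA replicate 2 (0.059), SAHA replicate 3 (0.13), untreated replicate 2 (0.083) or untreated replicate 3 (0.053), while the log2 fold change stayed between 0.67 and 0.82 when any single array was left out. Within replicate numbers 1, 2 and 3 the difference was 0.64, 0.73 and 0.87.

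None of the other 8 Frizzled genes passed. FZD7, a close relative of FZD1, had a log2 fold change of 0.27 (95% interval -0.07 to 0.61), and FZD6 had one of 0.24 (95% interval -0.03 to 0.51). FZD3, near the array medians, had one of -0.28. FZD2, at a control mean of 1.45, and FZD4, at 2.92, had log2 fold changes of 0.05 and -0.02, and FZD5, FZD9 and FZD10 lay between -0.12 and -0.08. The Frizzled genes had a median of -0.02, so that FZD1 alone of the 9 passed, but whether it differs from its relatives was not tested.

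**Figure D2:**
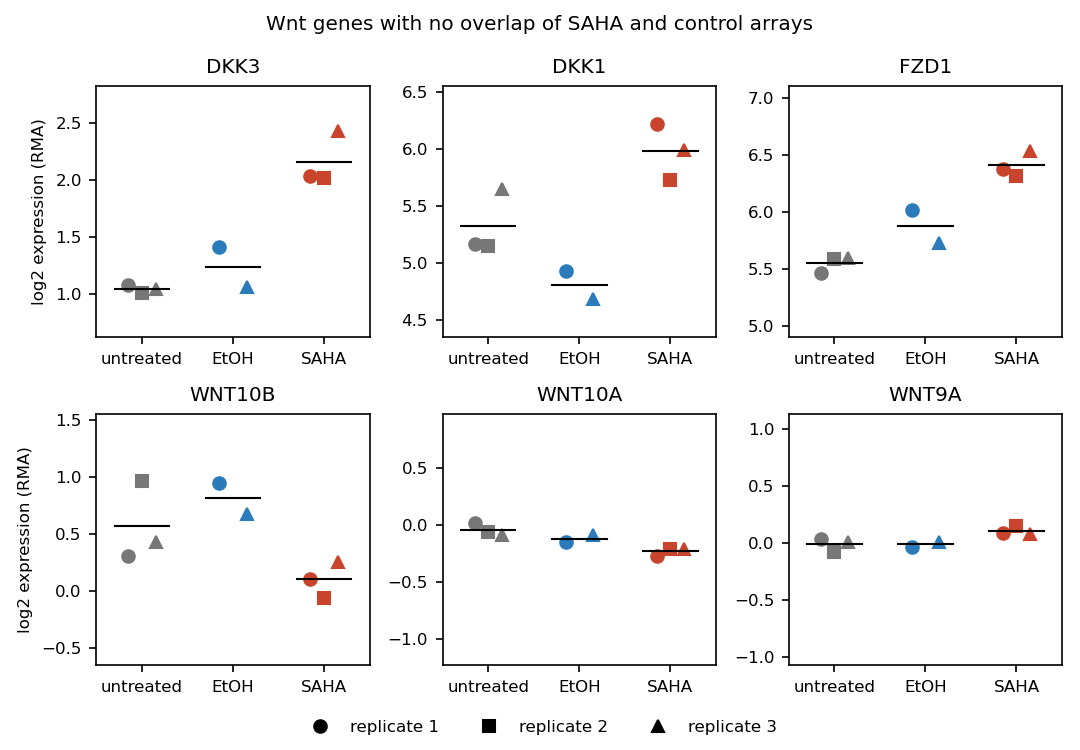
Log2 expression of the 6 Wnt genes whose SAHA arrays do not overlap with the control arrays. Each point is 1 array, the shape gives the replicate number, the horizontal bar is the group mean and every panel spans the same range of log2 values; the SAHA means of DKK3, DKK1 and FZD1 lie above the control means by 1.03, 0.86 and 0.73, and WNT10A and WNT9A are separated by little.

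Promoter sequence is shown for FZD1 and DKK1, the receptor gene and the inhibitor gene with the largest log2 fold changes among the members that have an entry in the RefSeq promoter table used here. Of the 52 genes, 35 had one and DKK3 did not. Each sequence is the 250 bases before the RefSeq start of the gene in build GRCh38.p14, read 5′ to 3′ on the plus strand, with matches to the motifs named below in capitals. The FZD1 stretch is chr7:91264183-91264432 and the DKK1 stretch is chr10:52314031-52314280.
FZD1: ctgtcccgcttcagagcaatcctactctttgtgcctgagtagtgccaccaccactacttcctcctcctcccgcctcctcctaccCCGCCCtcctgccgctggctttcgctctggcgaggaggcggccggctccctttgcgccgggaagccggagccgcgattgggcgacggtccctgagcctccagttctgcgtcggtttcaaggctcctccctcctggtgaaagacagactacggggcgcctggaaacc
DKK1: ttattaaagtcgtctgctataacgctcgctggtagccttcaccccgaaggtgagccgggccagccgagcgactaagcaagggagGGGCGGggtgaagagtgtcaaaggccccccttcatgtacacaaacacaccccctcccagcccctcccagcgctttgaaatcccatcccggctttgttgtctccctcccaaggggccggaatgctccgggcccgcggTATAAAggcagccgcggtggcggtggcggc
The motifs were searched on both strands by exact letters: the GC box GGGCGG, the TATA box TATAAA, a TCF/LEF motif CTTTGAT, an AP-1 motif TGACTCA, the CRE core TGACGTCA and the E-box CACGTG, none of which is part of another. FZD1 held 1 GC box, on the minus strand and so printed as its complement, and DKK1 held 1 GC box and 1 TATA box, the latter 24 bases before the start. A GC box was in 57.0% of the 14415 promoters of array genes and in 26 of the 35 member promoters, and a TATA box in 8.96% and in 1 of 35, that of DKK1. The TCF/LEF letters were in 1.73% of all promoters and in 0 of the 35. G and C made up 65.2% of the FZD1 stretch and 62.8% of the DKK1 stretch, with medians of 70.8% over the 35 member promoters and 62.4% over all. These matches describe the letters and say nothing of whether a factor binds there.

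Of the 19 Wnt ligand genes, 0 passed in limma, with 1 at an unadjusted p under 0.05. This was WNT10B, whose protein is known to hold back fat cell formation. WNT10B was at log2 values of 0.11, -0.06 and 0.26 in SAHA replicates 1, 2 and 3, at 0.31, 0.97 and 0.43 in untreated replicates 1, 2 and 3, and at 0.95 and 0.68 in EtOH replicates 1 and 3. The SAHA arrays lay below all controls, with SAHA replicate 3 close to untreated replicate 1. The log2 fold change was -0.57 (SE 0.16, 95% interval -0.93 to -0.21, adjusted p = 0.14 from limma). The control level was 0.67 ± 0.30 (SD, n = 5), where array medians ran from 0.26 to 0.33. Whether this low level limited the fall was not tested.

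WNT5A, a ligand that acts mainly without beta-catenin, was at 3.49, 3.18 and 4.05 in SAHA replicates 1, 2 and 3 against a control mean of 3.23 ± 0.27 (SD, n = 5). Its groups overlapped. The log2 fold change of 0.34 (95% interval -0.10 to 0.78) held differences within replicate numbers 1, 2 and 3 of 0.19, -0.36 and 1.04, which do not share a direction. WNT9B, whose probe set read far above the array medians, was at 7.94 ± 0.07 (SD, n = 5) in controls and 7.82 ± 0.05 (SD, n = 3) with SAHA, a log2 fold change of -0.12. WNT10A lay below and WNT9A above all controls in the SAHA arrays, but by log2 fold changes of only -0.15 and 0.12. The other 14 ligand genes had log2 fold changes between -0.20 (WNT16) and 0.16 (WNT8B), and the median of the 19 was -0.04.

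In all, 4 of the 52 genes (DKK3, DKK1, FZD1 and WNT9A) had all SAHA arrays above all controls and 2 (WNT10B and WNT10A) had them below. These are 7.69% and 3.85% of the members, where 4.21% and 6.25% of all genes were separated in the same way. The 6 genes at an unadjusted p under 0.05 are 11.5% of the members, against 15.4% of all genes.

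The co-receptor and ROR genes had 0 calls in limma, with ROR2 at an unadjusted p under 0.05. LRP5 was at 0.96, 0.41 and 0.89 in SAHA replicates 1, 2 and 3, at 0.52, 1.68 and 1.30 in untreated replicates 1, 2 and 3, and at 1.65 and 0.94 in EtOH replicates 1 and 3. The groups overlapped, and the log2 fold change of -0.46 (SE 0.25) came with differences of -0.12, -1.28 and -0.23 within replicate numbers 1, 2 and 3, so that replicate number 2 carried most of it. LRP6, the other co-receptor of the beta-catenin branch, had a log2 fold change of 0.11. ROR1, a receptor for WNT5A, was at 6.24 ± 0.37 (SD, n = 3) with SAHA and 6.26 ± 0.23 (SD, n = 5) in controls, and the 95% interval of its log2 fold change ran from -0.41 to 0.36. ROR2 had a log2 fold change of 0.23 at an adjusted p of 0.31, with control and SAHA means of -0.25 and -0.02, both below the array medians.

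R-spondins are secreted proteins that strengthen Wnt signals by binding LGR receptors, which draws the ubiquitin ligases RNF43 and ZNRF3 away from Frizzled. Of the 3 LGR genes, LGR4 had a log2 fold change of 0.47 (SE 0.15, 95% interval 0.14 to 0.79, adjusted p = 0.17 from limma). It was at 1.65, 1.71 and 1.32 in SAHA replicates 1, 2 and 3, at 1.02, 0.83 and 1.02 in untreated replicates 1, 2 and 3, and at 1.14 and 1.46 in EtOH replicates 1 and 3. SAHA replicate 3 lay below EtOH replicate 3, so the groups overlapped. LGR5 and LGR6 had log2 fold changes of 0.13 and 0.03. The log2 fold changes of the 4 R-spondin genes ran from -0.20 (RSPO4) to 0.07 (RSPO2), with 0 at an unadjusted p under 0.05 in limma.

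The feedback gene AXIN2, a widely used readout of beta-catenin activity, had a control mean of 0.01 ± 0.31 (SD, n = 5) and a SAHA mean of 0.14 ± 0.25 (SD, n = 3). Its log2 fold change of 0.13 (95% interval -0.27 to 0.53) was smaller than the spread within either group. RNF43 and ZNRF3 had log2 fold changes of -0.22 and 0.13. Of these 3 genes, 0 reached an unadjusted p under 0.05 in limma.

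Secreted frizzled-related proteins bind Wnt ligands outside the cell, as does WIF1. Among the 6 genes of this kind, SFRP1 had the largest log2 fold change, 0.29 (95% interval -0.01 to 0.59), with 0.48, 0.54 and 0.46 in SAHA replicates 1, 2 and 3. Controls ran from -0.10 in untreated replicate 1 to 0.55 in EtOH replicate 1, so the groups overlapped. FRZB, SFRP2, SFRP4, SFRP5 and WIF1 had log2 fold changes between -0.09 and 0.01 with control means from -0.24 to 0.15, and 0 of the 6 genes reached an unadjusted p under 0.05 in limma.

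The controls were also taken one at a time, in a fit with 3 groups. These comparisons share the SAHA arrays, and the 2 EtOH arrays give the less precise one. Against EtOH, 0 of the 52 genes passed in limma, where 0.0864% of all genes were called higher and 0.0162% lower. At an unadjusted p under 0.05 there were 6 of the 52, and 12.9% of all genes. Against untreated cells DKK3 and FZD1 rose, where 0.454% of all genes were called higher and 0.335% lower. At an unadjusted p under 0.05 there were 9 of the 52, and 16.5% of all genes. DKK3 had log2 fold changes of 0.92 (adjusted p = 0.10) against EtOH and 1.11 (adjusted p = 0.013) against untreated cells. FZD1 had 0.54 (adjusted p = 0.17) and 0.86 (adjusted p = 0.014). With the replicate block neither of them passed against untreated cells, at adjusted p = 0.052 for DKK3 and 0.10 for FZD1. Without untreated replicate 2 or untreated replicate 3 the count against untreated cells was 0, and it was 1 without untreated replicate 1, SAHA replicate 1 or SAHA replicate 3.

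For DKK1 the order was the other way round, with a log2 fold change of 1.18 (adjusted p = 0.088) against EtOH and 0.66 (adjusted p = 0.11) against untreated cells. Between the control groups, EtOH against untreated, DKK1 had a log2 fold change of -0.52 (SE 0.19, adjusted p = 0.46), FZD1 one of 0.32 and LGR4 one of 0.35. In this comparison 0 of the 52 genes passed in limma, and 0% of all genes were called. At an unadjusted p under 0.05 there were 8 of the 52, and 9.75% of all genes. The members' log2 fold changes between EtOH and untreated ran from -0.52 to 0.45.

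**Figure D3:**
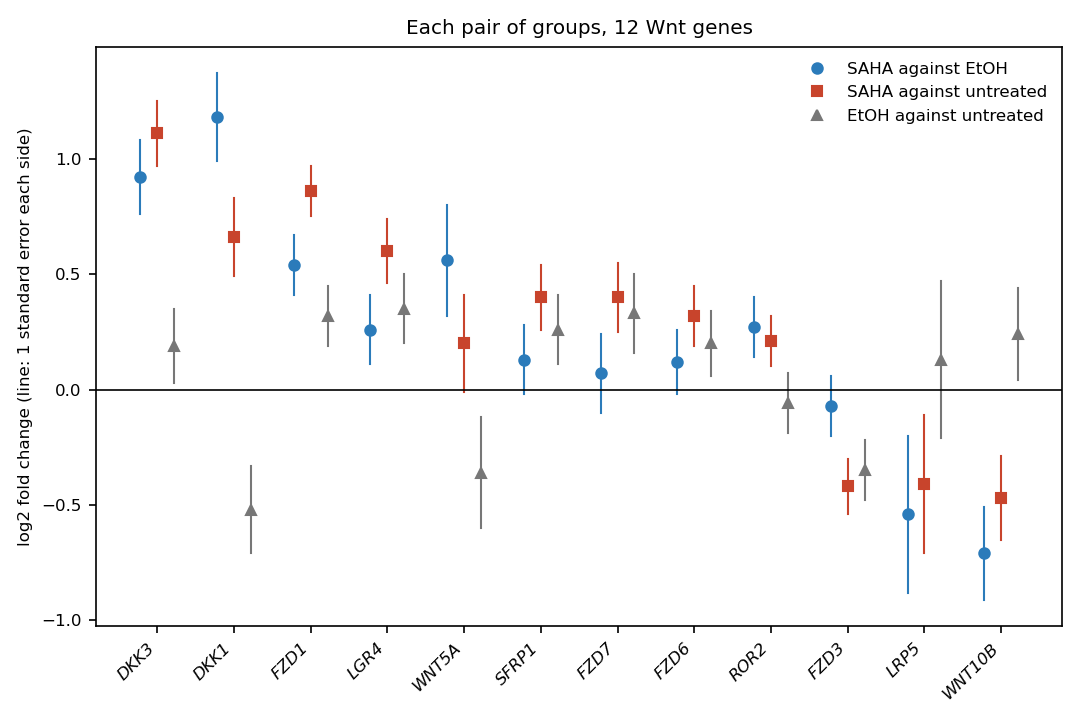
Log2 fold change for each pair of groups in the 12 Wnt genes with the largest change between SAHA and combined controls. Points are limma estimates with bars of 1 SE either way; DKK3, DKK1, FZD1, LGR4 and ROR2 are above 0 and WNT10B and LRP5 below 0 by more than 1 SE against either control, and for EtOH against untreated the estimates reach from -0.52 (DKK1) to 0.35 (LGR4).

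Of the other genes of the pathway, 96 were listed in 4 groups and 93 were on the arrays. In limma 1 rose and 0 fell, against the 0.438% and 0.297% of all genes, and their median log2 fold change was 0.01. At an unadjusted p under 0.05 there were 19 of the 93, against 15.4% of all genes, the share that the counts of each list below are also to be read against. The gene that rose was CCND1, which encodes cyclin D1 and is known as a beta-catenin target among other controls. It was at 5.45, 5.08 and 5.31 in SAHA replicates 1, 2 and 3, at 4.46, 4.33 and 4.32 in untreated replicates 1, 2 and 3, and at 4.20 and 4.48 in EtOH replicates 1 and 3. All SAHA arrays lay well above all controls, with a log2 fold change of 0.93 (SE 0.11, adjusted p = 0.0046), which held with the replicate block at 0.021 and missed the threshold with EtOH arrays only as control, at 0.063. The study also chose this gene for qPCR in the same cells.

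The other 21 measured genes known as beta-catenin targets did not pass. With CCND1 included, 5 of the 22 targets were at an unadjusted p under 0.05 in limma. SNAI2, which encodes a transcription factor of mesenchymal cells and was named after its value was seen, had an adjusted p of 0.044 from limma. Its fold was 1.38, short of 1.5, and with the replicate block its adjusted p was 0.27. The same held for CELSR2, which encodes a large cadherin of planar cell polarity, at adjusted p = 0.044 and 1.37-fold. With the replicate block the adjusted p of CELSR2 was 0.28. Of the 25 genes of the planar polarity and calcium branch, to which CELSR2 belongs, 0 passed both thresholds and 3 were at an unadjusted p under 0.05. MAPK8, the gene of the kinase JNK1, had the next smallest p of that branch, with a log2 fold change of -0.49 (adjusted p = 0.14).

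Inside the cell, 0 of 28 genes of the beta-catenin branch passed in limma, with 5 at an unadjusted p under 0.05. APC, whose protein helps destroy beta-catenin, had a log2 fold change of 0.45 (adjusted p = 0.14) and its relative APC2 one of -0.45 (adjusted p = 0.19). CTNNB1, the gene of beta-catenin itself, had a log2 fold change of 0.25 (adjusted p = 0.27 from limma). The TCF partner gene LEF1 had one of 0.26 (adjusted p = 0.20), with control and SAHA means of -0.15 and 0.11, both below the array medians. TNKS2 went the other way, at -0.38 (adjusted p = 0.31). CTNNB1, LEF1 and TNKS2 were named after their values were seen. Of 23 genes of Wnt secretion and other extracellular or membrane modulators, 0 passed and 8 were at an unadjusted p under 0.05. Of the log2 fold changes of this list, 8 were positive and 15 negative, the lowest being -0.52 for GPC6 (adjusted p = 0.24 from limma). PORCN, the enzyme gene for the lipid that Wnt proteins carry, had a log2 fold change of 0.63 (SE 0.18, adjusted p = 0.14), and IGFBP4, which encodes an IGF-binding protein also known to interfere with Wnt receptors, one of 0.47 (SE 0.12, adjusted p = 0.10). The list medians were -0.07 for secretion and modulators, -0.01 for the beta-catenin branch, 0.03 for planar polarity and calcium, and 0.09 for known targets.

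**Figure D4:**
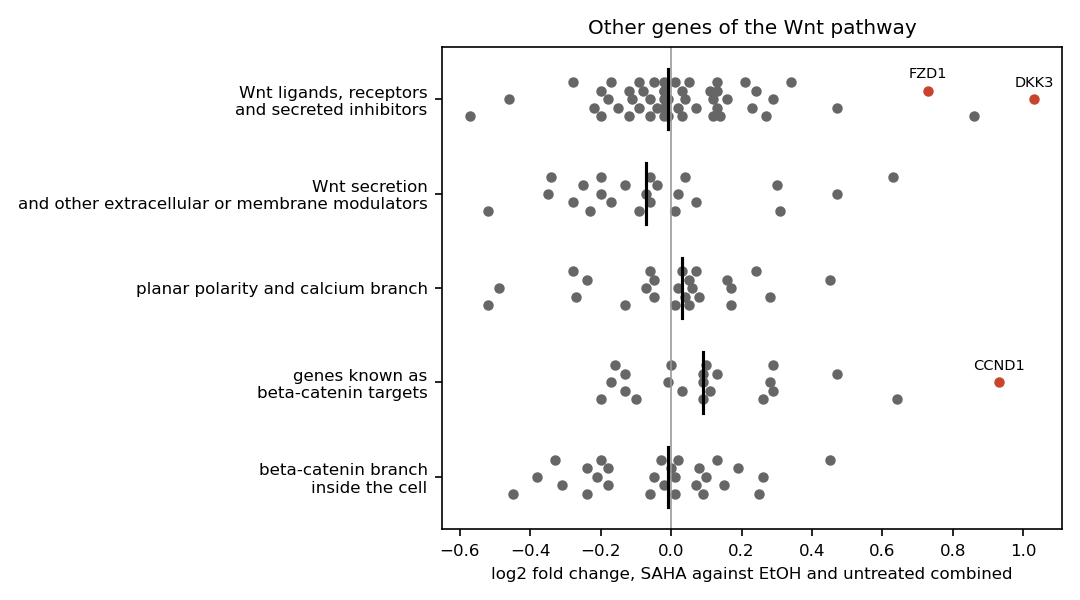
Log2 fold change between SAHA and combined control arrays for the 52 Wnt genes and for the 4 lists of other pathway genes. Each point is 1 gene, the vertical bar is the list median and red marks called genes; DKK3, FZD1 and CCND1 are the called genes and all medians lie within 0.1 of 0.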

How the data were processed

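ADSCs were profiled on Human Clariom S arrays in 3 SAHA, 2 EtOH and 3 untreated samples. The authors removed 1 EtOH array for low intensity and made the deposited log2 values by RMA normalization with the oligo package, annotating probes with clariomshumantranscriptcluster.db. As deposited, each of 18508 genes has 1 value per array, and in each gene the 3 replicate numbers average to the same value (within 1e-10), a step that the methods do not name. The genome build behind the array annotation is not given in the sources used here, and the promoter sequences are from RefSeq on GRCh38.p14.

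These log2 values entered limma 3.58.1, run under R 4.3.3 over all genes, without further normalization or filter, comparing SAHA with EtOH and untreated combined, as in the study's methods, and each pair of groups in a 3-group fit. Adjusted p-values are Benjamini-Hochberg over all genes. Errors of fold changes are limma standard errors and errors of means are SDs between arrays. The number of arrays limits the precision.

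The replicate numbers are shared between the groups, and their labels carry a p with 6, 10 and 16 that is not spelled out. Because the means of the numbers had been made equal, correlation between arrays cannot show whether they pair the samples. For the same reason, an array that is left out has already shaped the values of the arrays with its replicate number. In replicate number 2, which has no EtOH array, the SAHA and untreated arrays lie equally far on either side of the gene mean. Results with single arrays left out are therefore not fully free of the array left out. The fit without a block has 6 residual degrees of freedom and the fit with it 4. The values no longer hold differences between the replicate means, yet fits without the block still count degrees of freedom for them. Their p-values are therefore likely too small. Calls made without the block, that of FZD1 among them, are to be read beside the results with it. Log2 fold changes with the block were 1.02 times those without in every gene.

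The 52 genes follow a rule on symbols alone, but that gene family, the pathway and marker lists and the naming rule were chosen with earlier results of these data known. Genes were named if called in any comparison, if SAHA and control arrays did not overlap, if among the 12 largest changes, if having the largest change or highest mean of their role, or, in the pathway lists, if called or else by the 2 smallest p-values. Alternatives were the block, quantile normalization, median centring, a filter on genes of low mean (leaving 12339 genes, 31 of the 52 among them), an intensity trend, each control alone, equal control weights, the methods' t-test and each array left out. Simulated data were used to check the code of the fits, and no result above rests on them. Figures were drawn with matplotlib 3.10.9.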

Additional observations from a re-analysis of the deposited data

Results flagged for a closer look

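In DKK3, 1 control array stood apart: EtOH replicate 1 was at a log2 value of 1.41, against a mean of 1.05 in the other 4 control arrays. Its gap to the nearest control array, untreated replicate 1 at 1.08, was 0.821 of the whole range of the controls. Control arrays of 26 named genes were examined in this way, and chance alone marks about 1 in 20 groups. Without EtOH replicate 1 the log2 fold change of DKK3 was 1.11 at an adjusted p of 0.0056 from limma.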

How the results depend on the processing

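Of the 52 Wnt genes, 2 were higher in SAHA arrays than in the combined controls. The count was 1 with the replicate block, which treats same-numbered arrays as paired, and 0 with EtOH arrays only as control and by the methods' t-test. The count was 3 with EtOH and untreated given equal weight, where DKK1 also passed. It ran from 1 to 2 when single arrays were left out, and was 1 without untreated replicate 2 or any of the SAHA replicates 1, 2 and 3. Without untreated replicate 3 it stayed at 2, but with DKK1 in place of FZD1. Over all genes, 36 higher and 14 lower genes were called with the block, 16 and 3 with EtOH arrays only, 5 and 4 by the t-test, and 35 lower ones with the intensity trend. Single arrays left out gave 20 to 80 higher and 10 to 61 lower genes. The lowest counts came without SAHA replicate 3, with 35 and 14 without SAHA replicate 1, 48 and 23 without untreated replicate 2, and 35 lower genes without EtOH replicate 1. Higher genes made up 59.6% of all calls, 72.8% with median centring and 67.7% with quantile normalization. In alternatives chosen after seeing the data, the count against untreated cells was 0 with the block and 0 to 2 with single arrays left out, and against EtOH it was 1, DKK3, with quantile normalization. The log2 fold change of ROR1 changed sign with median centring, at 0.02, with EtOH arrays only, at 0.01, and without untreated replicate 2, SAHA replicate 1 or SAHA replicate 2, and ran from -0.23 to 0.14 when single arrays were left out. That of AXIN2 was -0.02 with EtOH arrays only, changed sign without SAHA replicate 1 and ran from -0.01 to 0.25. DKK3 passed in 15 of 16 alternatives other than the t-test, FZD1 in 9 and CCND1 in 15. The count of lower members was 0 under each of them, the t-test included. The cause of these changes was not tested.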
